A study of Caenorhabditis elegans with 6 samples.

Results

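Heat shock proteins and other molecular chaperones of Caenorhabditis elegans were followed from active third-stage larvae into L3 lethargus, the quiet phase of the molt. The genes were chosen by name: every gene called hsp, dnj, cct, pfd or sip with a number, and hsf-1, hsb-1, daf-21, cnx-1, crt-1, xbp-1, ire-1, pek-1 and atf-6. On the Affymetrix C. elegans Genome Array 73 of 17118 genes met this rule, through 107 of 22548 probe sets, where a probe set is the group of short probes that reports a transcript. daf-21 appears in the array annotation under its other name, hsp-90. Where a gene has several probe sets, its brightest one stands for it.

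The larvae in lethargus were wild-type N2 animals picked 37 hours after arrested hatchlings were fed, when they neither moved nor fed. The L3 larvae were N2 animals picked while active, 32 hours after feeding. The labels give 16 hours of starvation for both groups. Each group has 3 arrays, each from a pool of 200 animals, and all animals were grown at 20 °C on DA837 bacteria and picked by hand at 22.5 °C. Per the labels, 4 pools were collected per group and 1 of each was excluded for its RNA quality. All animals were whole hermaphrodites, so each level sums over tissues, and age, phase of the molt and behaviour differ together between the groups. The pools are numbered separately, and nothing in the labels says whether they were grown on separate days. The p-values therefore reflect only variation between pools within a group. limma, the test used, draws the spread of each probe set toward that shared by all probe sets. Per the labels, total RNA averaged 19.7 ± 3.5 ng per lethargus pool and 29.1 ± 15.9 ng per L3 pool (SD).

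Chaperones bind proteins that are not yet folded, or have lost their fold, and keep them from clumping. HSP70 proteins do this in cycles driven by ATP, started by J-domain partners (dnj genes in worms), while ring-shaped chaperonins enclose their clients and small heat shock proteins hold them without ATP. Each compartment has its own set, and each set has its own alarm: the transcription factor HSF-1 for the cytosol, ATFS-1 for mitochondria, and the IRE-1, PEK-1 and ATF-6 sensors for the endoplasmic reticulum (ER).

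The arrays had median log2 levels from 7.09 to 7.19, and no pair of arrays was identical. Markers of body wall muscle, pharyngeal muscle, intestine, neurons and germline were well above the Bacillus subtilis control probe sets, whose means reached 5.48. The adult yolk gene vit-2 lay at 4.70, 5.51 and 5.40 in lethargus and 4.14, 4.46 and 5.32 in L3, below the highest control on every array. The other adult genes, vit-6 and col-19, were above it on all 6 arrays, with changes of 0.09 and 0.59 (adjusted p 0.982 and 0.248). The molting gene mlt-10 fell by 2.67 on the log2 scale in lethargus (adjusted p = 0.0421, limma). 1 array departs from its group: on the leading principal component (50.1% of the variance) L3 replicate 3 scored 0.824, where the lethargus arrays scored 19.5 to 39.1 and L3 replicates 1 and 2 scored -47.7 and -40.9. It also had the highest summed sperm gene level (3 of 4 markers measured), 9.22 on the log2 scale against 7.38 and 7.62 on the other L3 arrays, with 7.51 to 8.50 on the lethargus arrays. Values without it are given beside some of the results only. Small changes printed alone can move too, as for vit-6, which had 0.30 without it.

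Of the 73 genes, 1 rose in lethargus, the heat-inducible small heat shock gene hsp-16.2, and 0 fell, while 72 were not called. A gene was called at an adjusted p of 0.05 or less, by limma with Benjamini-Hochberg adjustment over all 22548 probe sets. The 1 call is 1.37% of the members, against 0.754% of all probe sets called higher and 0.213% called lower. At an unadjusted p under 0.05, 6 members were higher and 2 lower, against 5.44% and 5.11% of all probe sets. Among the 107 member probe sets, the single one of hsp-16.2 was the 1 that was called. In whole larvae fewer cells of a type and less RNA per cell cannot be told apart.

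The median change over the 73 genes was 0.00 on the log2 scale (lethargus minus L3), against 0.02 over all 17118 genes, with 37 members above 0 and 36 below. The median size of a change, whatever its direction, was 0.09 among members and 0.13 among all genes. The median standard deviation (SD) between arrays of a group was 0.14 for members and 0.20 for all genes. In 9 of the 73 members the lowest lethargus array exceeded the highest L3 array, which held for 7.81% of all probe sets. In 2 of the 73 (2.74%) the highest lethargus array was below the lowest L3 array, against 6.57% of all probe sets. The 9 were hsp-16.2, hsp-16.41, sip-1, hsp-12.1, hsp-12.2, hsp-4, cct-2, cct-7 and pfd-5, and the 2 were dnj-27 and dnj-2. For 46 of the 73 genes (63.0%) the 95% interval of the change lay within 0.5 of 0 on the log2 scale, against 45.1% of all genes, a bound chosen after the values were seen. These comparisons with all genes were not matched for brightness. On every array 4 of the 73 members did not exceed the highest control, against 5369 of all 17118 genes.

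**Figure D1:**
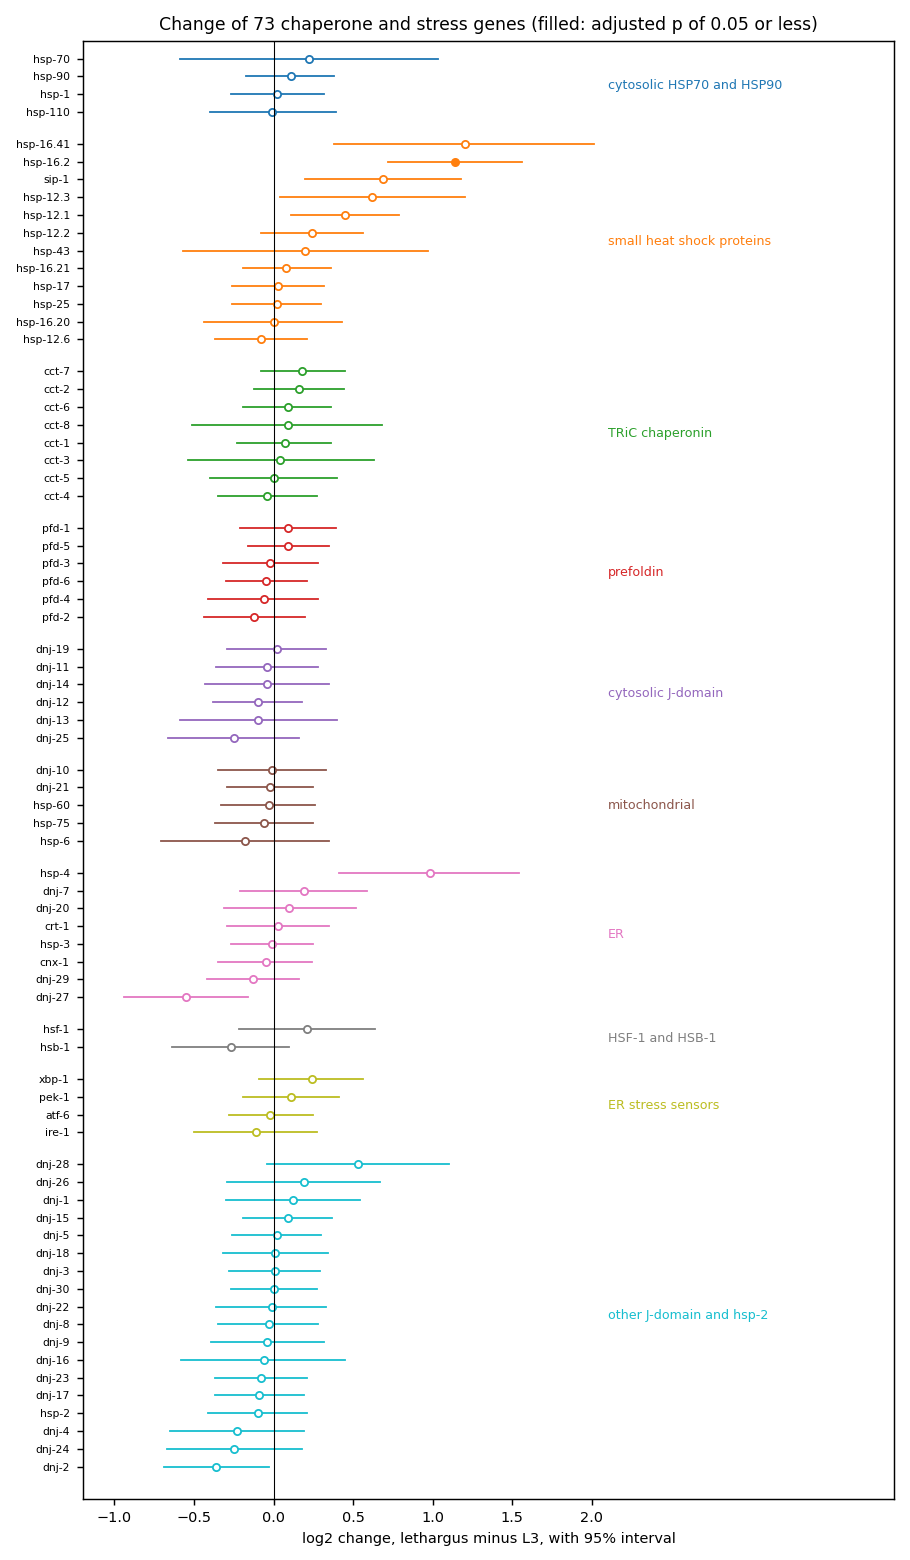
Log2 change of each of the 73 genes, lethargus minus L3 (horizontal axis), with its 95% interval as a line, grouped by role. The filled point is hsp-16.2, the 1 called gene. Changes beyond 0.5 are those of hsp-16.41, hsp-16.2, sip-1, hsp-12.3, hsp-4 and dnj-28 above 0, and of dnj-27 below.

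Small heat shock proteins are holdases built around an alpha-crystallin domain. Those of the HSP-16 group are close to silent in unstressed worms and strongly induced by heat through HSF-1. The level of hsp-16.2 was 10.75, 10.29 and 10.45 on the lethargus arrays, against 9.46, 9.08 and 9.52 on the L3 arrays. Every lethargus array lay above every L3 array. The L3 levels were themselves well above the control probe sets, whose means reached 5.48, so the gene was not near silent in L3 here. The mean was 10.50 ± 0.24 in lethargus and 9.35 ± 0.24 in L3 (SD, n = 3 each), a change of 1.14 (SE 0.18), or 2.21-fold with a 95% interval of 1.65 to 2.96 (adjusted p = 0.0389, limma).

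The size of the hsp-16.2 change held from 1.00 to 1.25 with any array left out, but its call did not. Without L3 replicate 3 it was 1.23 with an adjusted p of 0.0138, while without any other array the adjusted p lay from 0.0966 (lethargus replicate 2) to 0.170 (L3 replicate 2). Shifting the arrays to a common median gave 0.0535, and there 0.727% of all probe sets were called higher and 0.235% lower. The plot of changes by setting gives each of these values.

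hsp-16.41, a further HSP-16 gene that lies beside hsp-16.2 on chromosome V in RefSeq WBcel235 with no protein-coding gene between, is also heat-inducible. Its level was 9.0, 7.47 and 8.29 in lethargus, against 7.22, 6.91 and 7.03 in L3. The groups did not overlap, but the lethargus arrays spread over 1.52 and the L3 arrays over 0.30. The change was 1.20 (SE 0.35, 95% interval 0.38 to 2.01), with an adjusted p of 0.231, and 0.83 to 1.59 with an array left out. It was not called.

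hsp-16.1, hsp-16.11, hsp-16.48 and hsp-16.49 are reported by probe sets that match 2 genes each, which the naming rule leaves out. The probe set for hsp-16.1 and hsp-16.11 read 11.29, 11.03 and 10.63 in lethargus, against 10.40, 10.55 and 11.08 in L3, a change of 0.31 (adjusted p 0.811). The probe set for hsp-16.48 and hsp-16.49 read 10.54, 9.66 and 9.47 in lethargus, against 9.34, 9.43 and 9.96 in L3, a change of 0.31 (adjusted p 0.880). In both, L3 replicate 3 was above the mean of the other L3 arrays, by 0.61 and 0.58, and the groups overlapped. Without that array the changes were 0.51 and 0.50. On L3 replicate 3, hsp-16.2 differed from the other L3 arrays by 0.26 and hsp-16.41 by -0.04. The probe sets for hsp-16.20 and hsp-16.21, neighbours elsewhere on chromosome V, stayed below the highest control on every array.

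sip-1 encodes a small heat shock protein abundant in embryos. Its level was 12.53, 11.97 and 11.74 in lethargus, against 11.37, 11.30 and 11.50 in L3, again without overlap. The change was 0.69 (SE 0.21, adjusted p 0.257), and a dimmer probe set of sip-1 had 0.77 (adjusted p 0.179). Lethargus replicate 1 was the highest array for hsp-16.2, hsp-16.41 and sip-1 alike, and without it the 3 changes were 1.01, 0.83 and 0.46.

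The HSP-12 proteins are the shortest of the family, little more than the alpha-crystallin core. hsp-12.1 read 9.78, 9.75 and 10.06 in lethargus and 9.24, 9.52 and 9.48 in L3, a change of 0.45 (SE 0.14, adjusted p 0.293). hsp-12.3 read 8.32, 8.67 and 8.99 in lethargus and 7.60, 8.18 and 8.35 in L3, a change of 0.62 (SE 0.25, adjusted p 0.427), with overlap. hsp-12.2 had 0.24 (adjusted p 0.668). hsp-12.6, which neighbours hsp-12.3 on chromosome IV and is a known target of the insulin pathway, read 2.83, 3.09 and 2.86 in lethargus and 3.00, 3.00 and 3.03 in L3, below the highest control on every array.

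hsp-25, hsp-17 and hsp-43 differed in their spread. hsp-25, whose protein sits in body wall muscle, read 11.59, 11.65 and 11.47 in lethargus and 11.58, 11.46 and 11.60 in L3, a change of 0.02 (95% interval -0.26 to 0.30). hsp-17 read 12.50, 12.48 and 12.55 in lethargus and 12.32, 12.52 and 12.59 in L3, a change of 0.03 (-0.26 to 0.32). For both, the groups overlapped and no array stood far from the rest. hsp-43 read 10.26, 10.37 and 9.53 in lethargus, against 9.40, 9.65 and 10.50 in L3, so that the highest array was L3 replicate 3. Its change was 0.20 (SE 0.33, adjusted p 0.946), or 0.52 without L3 replicate 3 (adjusted p 0.435). Over the 12 small heat shock genes the median change was 0.22, against 0.02 over all 17118 genes. Of the 12, 10 were above 0 and 2 below, where 9312 of all genes were above 0 and 7806 below. In 5 of the 12 the groups did not overlap, with lethargus above, which held for 7.81% of all probe sets. Leaving out lethargus replicate 1 took the median to 0.12, leaving out lethargus replicate 3 to 0.34 and leaving out L3 replicate 3 to 0.36. Over the 9 genes that are not dim it was 0.45. The 9 that were above the highest control on all arrays include all genes of the class with a change over 0.1.

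**Figure D2:**
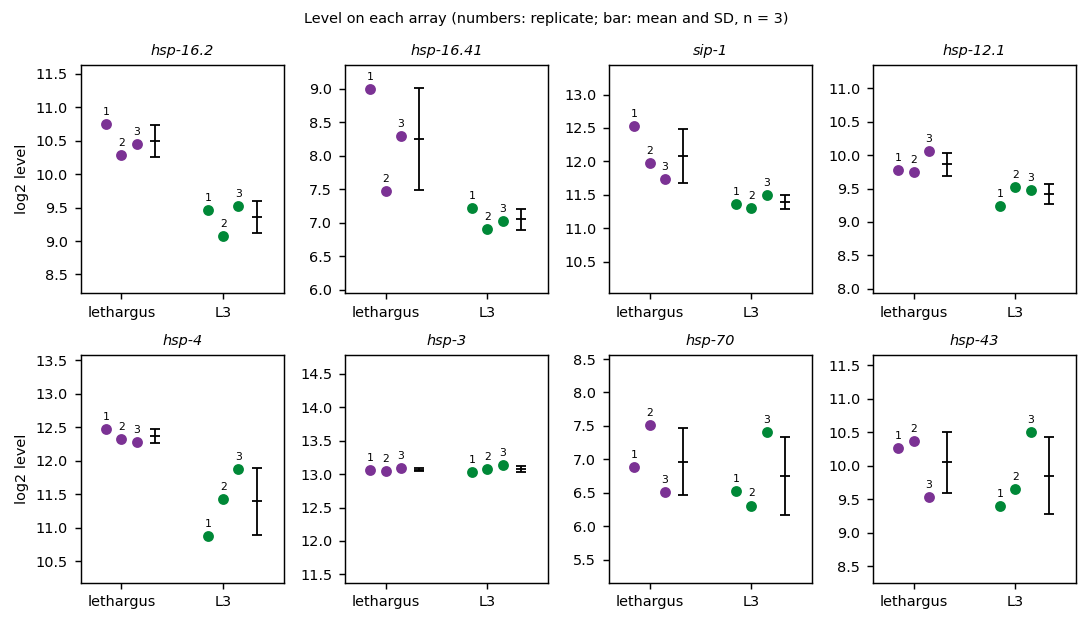
Log2 level (vertical axis, the same span in each panel) of 8 genes on every array, lethargus left of L3, with replicate numbers beside the points and the mean and SD at their right. hsp-16.2, hsp-16.41, sip-1, hsp-12.1 and hsp-4 have no overlap between groups, hsp-3 stays between 13.03 and 13.13, and hsp-70 and hsp-43 are high on L3 replicate 3.

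Markers of pharyngeal muscle were also without overlap between the groups, in 3 of 3 genes (myo-2, tnt-4 and tni-4, none called, changes 0.42 to 0.53), with lethargus above, which held for 7.81% of all probe sets. Their summed level was 12.34 to 12.54 on the lethargus arrays and 11.78 to 12.11 on the L3 arrays (log2 scale). The summed level of 3 of 3 intestinal genes was 11.56 to 11.81 in lethargus and 11.86 to 12.15 in L3. Their median change was -0.27 and 0 were called, against 0.967% of all probe sets called in either direction. Of 2 of 3 epidermal genes measured, dpy-7 had -1.12 (adjusted p 0.288) and col-12 had 0.30 (adjusted p 0.426), both without overlap. The summed level of 3 of 3 molting genes was 9.53 to 10.72 in lethargus and 11.65 to 12.91 in L3. The part of these lists in the small heat shock and hsp-4 values was not tested. Summed body wall muscle markers (3 of 3) lay at 14.39 to 14.49 in lethargus and 14.37 to 14.43 in L3.

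The HSP70 and HSP90 proteins of the cytosol are the general folding machines of the cell. hsp-1, the constitutive HSP70, read 13.46, 13.19 and 13.41 in lethargus, against 13.34, 13.35 and 13.30 in L3. Its change was 0.02 with a 95% interval of -0.27 to 0.32. hsp-90, also called daf-21, read 13.08, 12.99 and 13.16 in lethargus and no more than 13.01 in L3, where the arrays spread over 0.12, a change of 0.11 (-0.17 to 0.38). In both genes the groups overlapped. A second, unmarked probe set of hsp-90 had -0.03 (-0.29 to 0.22). hsp-110, a nucleotide exchange factor for HSP70, read 11.17, 10.66 and 11.13 in lethargus and 11.10, 10.89 and 10.98 in L3, a change of -0.01 (-0.40 to 0.39). These intervals leave room for changes of up to 1.24-fold, 1.30-fold and 1.31-fold upward.

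hsp-70, a heat-inducible HSP70, had the widest spread of these 4 genes. It read 6.88, 7.51 and 6.51 in lethargus, against 6.53, 6.31 and 7.41 in L3, with the highest values on lethargus replicate 2 and L3 replicate 3. The change was 0.22 (SE 0.35, 95% interval -0.59 to 1.03), or 0.55 without L3 replicate 3 (adjusted p 0.450). A pair of probe sets shared by F44E5.4 and F44E5.5, which are outside the naming rule, had 0.41 and 0.29 (adjusted p 0.728 and 0.774), and on both L3 replicate 3 was above the other L3 arrays, by 0.62 and 0.50. Without that array they had 0.61 and 0.46.

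The TRiC chaperonin, a double ring of 8 different subunits, folds actin and tubulin, which prefoldin hands to it. All 8 cct genes and all 6 prefoldin genes were measured and 0 were called, against 0.754% of all probe sets called higher and 0.213% lower. At an unadjusted p under 0.05 there were 0, against 5.44% of all probe sets higher and 5.11% lower. The cct changes ran from -0.04 (cct-4) to 0.18 (cct-7), with a median of 0.08, and the prefoldin changes from -0.12 (pfd-2) to 0.09 (pfd-1 and pfd-5), with a median of -0.03. cct-7 read 11.98, 12.09 and 11.99 in lethargus and 11.83, 11.79 and 11.90 in L3, without overlap but with an adjusted p of 0.725. A dimmer probe set of cct-7 had 0.04, with overlap. cct-2 read 12.54, 12.37 and 12.38 in lethargus and no more than 12.33 in L3, where the arrays spread over 0.13, a change of 0.16 (adjusted p 0.797), likewise without overlap, though a dimmer probe set of cct-2 had 0.00. cct-1 read 12.39, 12.31 and 12.58 in lethargus and 12.29, 12.39 and 12.39 in L3, a change of 0.07 (95% interval -0.23 to 0.36). Prefoldin is a separate complex that catches chains as they leave the ribosome. pfd-5 read 12.94, 12.88 and 12.93 in lethargus and 12.80, 12.83 and 12.84 in L3, a change of 0.09 (adjusted p 0.906) without overlap. pfd-2 read 11.35, 11.68 and 11.45 in lethargus and 11.61, 11.72 and 11.50 in L3, a change of -0.12 with overlap. Non-overlap with lethargus above, as in cct-7, cct-2 and pfd-5, held for 7.81% of all probe sets. All 6 prefoldin intervals and 6 of the 8 cct intervals lay within 0.5 of 0, with cct-3 and cct-8 as the wider ones.

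J-domain proteins pick clients for HSP70. The cytosolic dnj-11, dnj-12, dnj-13, dnj-14, dnj-19 and dnj-25 had changes from -0.25 to 0.02. Of these, 0 were called, against 0.967% of all probe sets called in either direction. dnj-13, a DNAJB-type partner of HSP70, read 11.54, 11.01 and 10.69 in lethargus and 11.16, 11.14 and 11.23 in L3. Its lethargus arrays thus lay on both sides of L3. The change was -0.10, and a dimmer probe set of dnj-13 had -0.31 (adjusted p 0.784). dnj-25, the worm auxilin, which helps HSP70 strip clathrin from vesicles, read 8.89, 8.83 and 9.04 in lethargus and 9.16, 9.48 and 8.88 in L3, a change of -0.25 (adjusted p 0.776), or -0.40 without L3 replicate 3 (adjusted p 0.315). Its L3 arrays spread over 0.61 and its lethargus arrays over 0.21. dnj-12, a DNAJA-type partner, read 10.92, 10.92 and 10.76 in lethargus and 10.90, 10.94 and 11.06 in L3, a change of -0.10 (95% interval -0.38 to 0.18).

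A further 17 dnj genes and hsp-2 were not assigned to a compartment. Of these 18, 0 were called, against 0.967% of all probe sets called in either direction. Their changes ran from -0.36 to 0.53, with a median of -0.02. dnj-28 read 8.15, 8.47 and 7.66 in lethargus and 7.29, 7.50 and 7.90 in L3, a change of 0.53 (SE 0.24, adjusted p 0.534) with overlap. dnj-2 read 9.34, 9.42 and 9.52 in lethargus and 9.96, 9.81 and 9.59 in L3, a change of -0.36 (SE 0.14, adjusted p 0.411) without overlap. A second probe set of dnj-2 had -0.41 (adjusted p 0.676), and the one it shares with C47A4.1 had -0.52 (adjusted p 0.391).

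The mitochondrial chaperones had changes from -0.18 to -0.01, with 0 of 5 called and a median of -0.03. Of all probe sets, 0.967% were called in either direction. hsp-6, the mitochondrial HSP70 and the usual reporter of mitochondrial stress, read 12.08, 12.24 and 11.39 in lethargus and 12.21, 11.98 and 12.07 in L3. Its change was -0.18 (95% interval -0.71 to 0.35), with the 1 low value on lethargus replicate 3, and without that array it was 0.08. A dimmer probe set of hsp-6 read 9.85, 9.86 and 9.85 in lethargus and 9.88, 10.06 and 10.00 in L3. Its change was -0.12 (adjusted p 0.868), without overlap and with no low value on lethargus replicate 3. Non-overlap with lethargus below held for 6.57% of all probe sets. hsp-60, the mitochondrial chaperonin, read 11.78, 11.94 and 11.87 in lethargus and 11.89, 12.02 and 11.77 in L3, a change of -0.03 (-0.33 to 0.26). The groups overlapped. A dimmer probe set of hsp-60 had -0.32 (adjusted p 0.801), also with overlap. hsp-75, the HSP90 of mitochondria, read 11.09, 10.78 and 11.10 in lethargus and 11.01, 11.05 and 11.09 in L3, a change of -0.06 (-0.37 to 0.25). dnj-10, and dnj-21, the partner of the import motor, had -0.01 and -0.02, with 0.11 on a dimmer probe set of dnj-10 (adjusted p 0.967).

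Genes that govern or assist mitochondrial stress responses but fall outside the naming rule were likewise not called, in 10 of 10 measured. Over all probe sets the share called in either direction was 0.967%. The largest change was that of dve-1, a homeobox factor of this response, which read 7.97, 7.94 and 8.51 in lethargus and 7.74, 7.56 and 7.33 in L3 (0.59, adjusted p 0.295). atfs-1, the factor that switches the response on, read 9.57, 9.14 and 9.09 in lethargus and 8.95, 8.95 and 8.78 in L3 (0.38, adjusted p 0.485). In these 2 of the 10, lethargus lay above L3 without overlap, against 7.81% of all probe sets. At an unadjusted p under 0.05, 1 of the 10 was higher and 0 lower, against 5.44% and 5.11% of all probe sets. The median of the list was 0.11.

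The ER holds 2 HSP70 proteins in worms, HSP-3 and HSP-4, both counterparts of BiP. hsp-4, which is induced through IRE-1 and XBP-1 under ER stress, read 12.48, 12.33 and 12.28 in lethargus, against 10.87, 11.43 and 11.87 in L3. The groups did not overlap, and the L3 arrays spread over 1.00 with replicate 3 nearest to lethargus. The mean was 12.36 ± 0.10 in lethargus and 11.39 ± 0.50 in L3 (SD, n = 3 each), a change of 0.98 (SE 0.24, 1.97-fold, 95% interval 1.33 to 2.91) with an adjusted p of 0.153. Without L3 replicate 3 it was 1.22 with an adjusted p of 0.0136, so that 2 members were called in place of 1, where 2.54% of all probe sets were called higher and 2.5% lower. With any other array left out the adjusted p lay from 0.272 to 0.452. Its probe set is marked as able to match related transcripts.

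hsp-3 read 13.06, 13.05 and 13.09 in lethargus, against 13.03, 13.07 and 13.13 in L3, a change of -0.01 (95% interval -0.27 to 0.25). The groups overlapped, and all 6 arrays lay within 0.10 of each other.

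The lectin chaperones of the ER hold glycoproteins until they fold. They were not called, against 0.967% of all probe sets called in either direction, and their intervals lay on both sides of 0. crt-1, calreticulin, read 14.24, 14.14 and 13.87 in lethargus and 14.05, 14.03 and 14.08 in L3, a change of 0.03 (-0.29 to 0.35). cnx-1, calnexin, read 11.14, 11.04 and 11.27 in lethargus and 11.32, 11.15 and 11.13 in L3, a change of -0.05 (-0.35 to 0.24). In both the groups overlapped. dnj-27, a J-domain protein with thioredoxin folds like mammalian ERdj5, read 8.72, 9.11 and 9.15 in lethargus, against 9.65, 9.64 and 9.35 in L3. It did not overlap between groups and had a change of -0.55 (SE 0.17, adjusted p 0.251), while the probe set it shares with Y73B6BL.12 had -0.34 (adjusted p 0.613). dnj-7, dnj-20 and dnj-29, counterparts of P58IPK, ERdj3 and Sec63, had 0.19, 0.10 and -0.13, and dnj-7 had 0.32 without L3 replicate 3.

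Of 16 measured genes of ER folding and degradation outside the naming rule, 0 were called, against 0.967% of all probe sets called in either direction. The median change was 0.03, with 2 higher and 0 lower at an unadjusted p under 0.05, against 5.44% and 5.11% of all probe sets. In 2 of the 16 lethargus lay above L3 without overlap and in 2 below, against 7.81% and 6.57% of all probe sets. ckb-2, a choline kinase gene known as a target of the IRE-1 and XBP-1 pathway, had the largest change. It read 11.82, 11.50 and 11.18 in lethargus, against 9.97, 10.00 and 10.83 in L3, a change of 1.23 (SE 0.27, adjusted p 0.110) without overlap. As with hsp-4, L3 replicate 3 was the highest of the L3 arrays, and against the other L3 arrays alone the difference was 1.51. ero-1, the oxidase that drives disulfide formation, had 0.33 (adjusted p 0.415), while pdi-2 and sec-61.A had -0.21 and -0.27 (adjusted p 0.700 and 0.562). The lowest value of the list was that of atf-4, a transcription factor of the PEK-1 branch, with -0.43 (adjusted p 0.495).

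The ER stress sensors, xbp-1, hsf-1 and hsb-1 were not called, against 0.967% of all probe sets called in either direction. xbp-1 read 13.30, 13.19 and 12.96 in lethargus and 12.85, 12.84 and 13.04 in L3, a change of 0.24 (SE 0.14, adjusted p 0.690), and a dimmer probe set had 0.11. Splicing of xbp-1 mRNA by IRE-1 is the activating step, and these values do not separate the spliced from the unspliced form. ire-1 read 9.17, 8.67 and 9.13 in lethargus and 9.09, 9.01 and 9.21 in L3, a change of -0.11 (95% interval -0.50 to 0.27). pek-1 had 0.11 (-0.19 to 0.41). atf-6 had -0.02 (-0.28 to 0.25) and -0.46 on a dimmer probe set (adjusted p 0.409). hsf-1 read 7.94, 7.99 and 8.55 in lethargus and 7.90, 8.05 and 7.90 in L3, a change of 0.21 (adjusted p 0.853). hsb-1, whose product binds and restrains HSF-1, read 7.84, 8.30 and 8.11 in lethargus and 8.22, 8.51 and 8.32 in L3, a change of -0.27 (adjusted p 0.700), with 0.11 on a dimmer probe set.

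Co-chaperones of HSP70 and HSP90 outside the naming rule gave 0 calls among 13 measured, against 0.967% of all probe sets called in either direction. At an unadjusted p under 0.05 there were 0, against 5.44% of all probe sets higher and 5.11% lower. Their changes ran from -0.21 (sgt-1) to 0.21 (chn-1, the worm CHIP ubiquitin ligase), with a median of 0.03. sti-1, which links HSP70 to HSP90, had -0.06, and unc-45, the myosin chaperone, had 0.14.

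**Figure D3:**
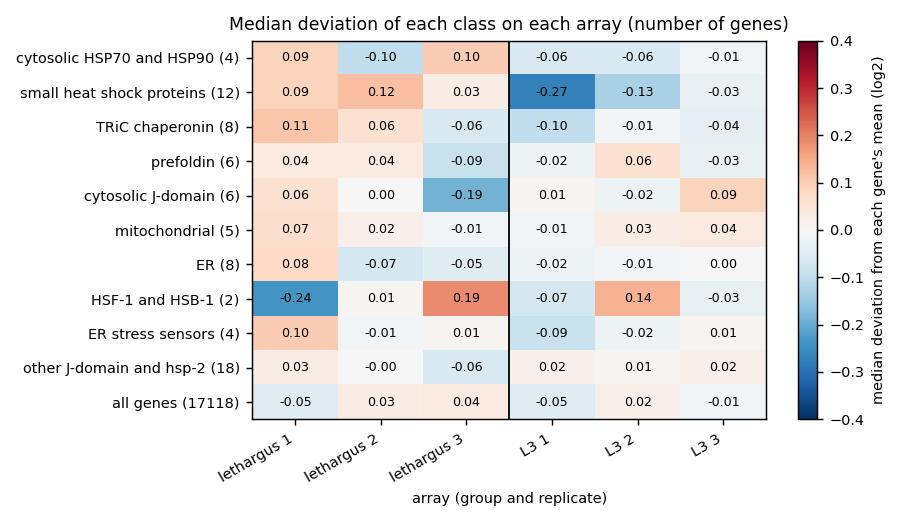
Median deviation of each class from its genes' own means over the 6 arrays (log2, colour and printed number), with the arrays in columns, lethargus left of L3, and all 17118 genes in the bottom row. The small heat shock class lies at 0.03 to 0.12 on the lethargus arrays and at -0.27, -0.13 and -0.03 on the L3 arrays.

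Set side by side, the class medians on single arrays stayed between -0.10 and 0.12, apart from the small heat shock genes on L3 replicates 1 and 2 (-0.27 and -0.13), the cytosolic J-domain genes on lethargus replicate 3 (-0.19) and the 2 genes hsf-1 and hsb-1 (-0.24 to 0.19). All 36 cytosolic members together had a median change of 0.04, against -0.03 for the 5 mitochondrial and 0.01 for the 8 ER members. The 36 include the 12 small heat shock genes, whose own median was 0.22.

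The 73 genes lie on all 6 chromosomes, with 8 on X and 12 to 15 on each autosome. hsp-2, on X, is a pseudogene in RefSeq, and its probe set stayed below the highest control on every array. Besides the pairs hsp-16.2 with hsp-16.41, hsp-16.20 with hsp-16.21 and hsp-12.3 with hsp-12.6, xbp-1 and dnj-16 are direct protein-coding neighbours. dnj-16 had a change of -0.06 (adjusted p 0.983). Of the 31 members with several probe sets, 16 had probe sets of opposite sign, and the widest gap within a gene was 0.44.

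**Figure D4:**
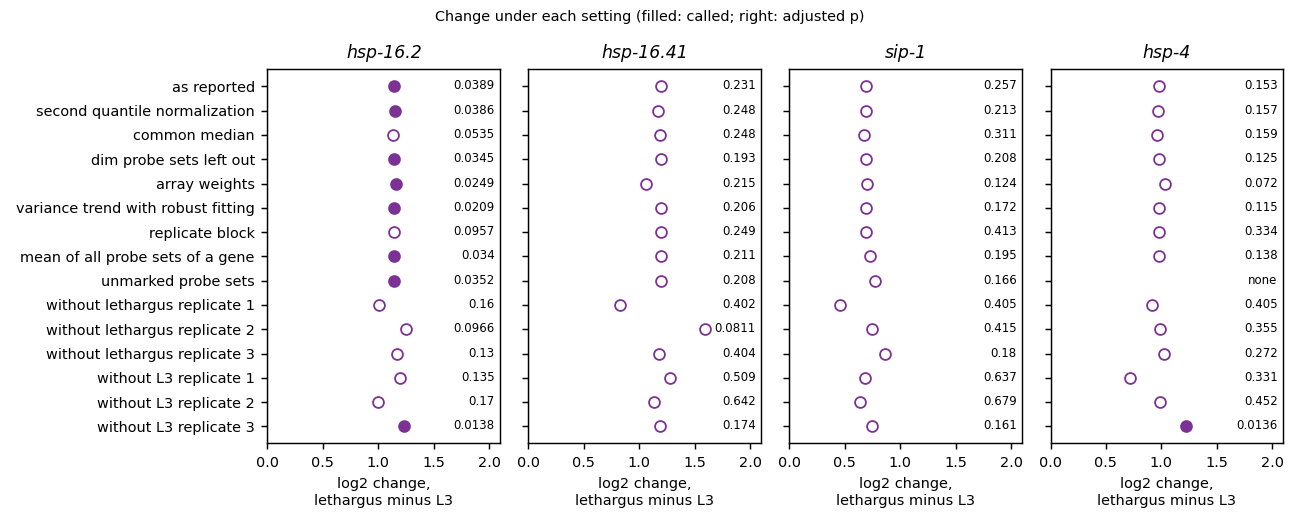
Log2 change, lethargus minus L3 (horizontal axis), of hsp-16.2, hsp-16.41, sip-1 and hsp-4 under the reported setting and each alternative (rows), with the adjusted p at the right. Filled points are called: hsp-16.2 under the reported setting and 7 alternatives, and hsp-4 without L3 replicate 3. All points lie above 0, and hsp-4 has no unmarked probe set.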

How the data were processed

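Total RNA was amplified with the Nugen Ovation system and hybridized to the array, per the labels' protocols. The deposited values are log2 expression levels that the authors made with RMA, per the submitters' processing notes, and no further normalization was applied. For RMA's version and settings, and for a genome build, the sources used here give nothing. Of 22625 probe sets, 77 controls were left out. The array annotation named 1 gene for 20766 probe sets, and all 73 members matched RefSeq (WBcel235) by gene identifier.

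The fit of group alone to all 6 arrays used limma 3.58.1 (R 4.3.3), two-sided, and was tested on simulated data. The planted changes were larger than any member change, so recovery of changes of the sizes reported here was not tested. The design text's R/maanova was not run. The 24 Bacillus subtilis control probe sets marked background. Probe sets ending in _s_at or _x_at can match related transcripts, and represent 36 members. The number of arrays limits the precision.

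Members and lists were chosen with earlier results of these data known. After the values were seen, hsp-16.20 and hsp-16.21 were put with the small heat shock genes and dnj-15 was left without a compartment. Values per array are given for called members, the 2 largest changes of each class and a list of core chaperones written with the design, 33 in all. hsp-12.1, hsp-12.3, the probe sets of several genes and the genes outside the naming rule were added after their values were seen. Alternatives (14) left out each array in turn or dim probe sets, or used medians set equal, quantiles set equal again, array weights, a variance trend, a replicate block, the mean of a gene's probe sets or unmarked probe sets.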

Additional observations from a re-analysis of the deposited data

How the results depend on the processing

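Over 14 alternatives, the count of members called lower was 0 throughout. The count called higher stayed at 1 under 6 of the 8 that keep all arrays. It was 0 with a common median, where hsp-16.2 had an adjusted p of 0.0535, and 0 with the replicate block, where hsp-16.2 had 1.14 with 0.0957. With an array left out it was 0 to 2, with 2 (hsp-16.2 and hsp-4) without L3 replicate 3 and 0 without any other array. The pool numbers are not shown to pair the samples: the deviations of same-numbered arrays correlated at 0.264, -0.244 and -0.293. The block lowered the calls over all probe sets to 56 higher and 3 lower, against 170 and 48. Array weights gave 262 and 231 and a variance trend 185 and 77. The median change of the small heat shock genes was 0.45 without dim probe sets (9 genes), 0.34 on unmarked probe sets (10 genes) and 0.12 to 0.36 with an array left out. On unmarked probe sets the ER median was -0.22 (2 genes), that of hsb-1 alone -0.27, and that of the ER sensors grouped with xbp-1 -0.11 (3 genes). With an array left out, the TRiC median ran from 0.04 to 0.15, prefoldin from -0.07 to 0.06 and the cytosolic J-domain genes from -0.12 to 0.07. Without L3 replicate 3 the calls over all probe sets were 573 higher and 563 lower, while without any other array they were 75 to 90 higher and 0 to 1 lower. The cause was not tested.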
